A study of Drosophila melanogaster with 52 samples.

Results

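Loss of the zygotic product of pho in Drosophila melanogaster larvae was described across gene families and tissues by setting 3 RNA-Seq libraries of zygotic pho mutants (PhoKO) against 3 libraries of wild-type larvae (WT). These 6 libraries are among 52 samples of the series, of which 10 are RNA-Seq libraries. The members of the comparison are the 9572 of 16502 listed genes whose level was 1 FPKM or more in at least 3 of the 6 libraries. FPKM counts fragments relative to transcript length and to the mapped fragments of the library, so it is a level per length and depth.

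PhoKO larvae are described by the submitters as mutant for pho in the zygote, and WT larvae as wild type; 4 further RNA-Seq libraries, used for comparison, came from larvae without maternal and zygotic Spps (SppsKO). In all 3 groups poly(A) RNA of imaginal discs and brains from larvae of the third instar was sequenced. The pho and Spps alleles, the wild-type strain, the sex and the age within the instar are not given in the labels, so loss of pho and a difference of strain background between PhoKO and WT cannot be told apart. Whether the replicates of a group are separate crosses is not stated, so p-values reflect the variation among these libraries, some of which may be technical. In tissue that holds several cell types, fewer cells of a type and less RNA per cell cannot be told apart.

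Pleiohomeotic, the protein made from pho, is a zinc finger protein that binds DNA at Polycomb response elements and helps to bring Polycomb group complexes there. Polycomb repressive complex 2 (PRC2) methylates lysine 27 of histone H3, and Polycomb repressive complex 1 (PRC1) compacts chromatin and holds developmental genes silent. Spps and phol encode other proteins that bind such elements, and phol is the closest relative of pho. Imaginal discs are the larval precursors of the adult eye, antenna, wing, leg and other structures. A mother's pho product laid down in the egg is not removed by a mutation of the zygote.

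Genes were compared on log2(FPKM + 1), a scale that understates the change of genes with low levels, in 1 limma fit across all tested genes. Adjusted p-values are limma's, with Benjamini-Hochberg adjustment over the 9572 genes, and called genes are those with an adjusted value under 0.05. Of the 9572 genes 953 were called, which is 9.96%, and by this measure 450 were higher (4.7%) and 503 lower (5.25%) in PhoKO. In each of 10 fits that left out 1 library in turn, 458 genes (4.78%) were called in the same direction, 228 higher (2.38%) and 230 lower (2.4%). Counts below give the genes called in the full fit and then those called in all 10 of these fits, under the name of steady calls. Leaving out WT 1 or PhoKO 2 lowered the 953 calls to 581 and 609. The fit used all 10 RNA-Seq libraries, and with the 6 PhoKO and WT libraries alone 486 genes were called. The PhoKO and WT values did not overlap for 28.3% of all tested genes and for 952 of the 953 called genes, so beside a call the lack of overlap describes the values and adds no support.

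**Figure D1:**
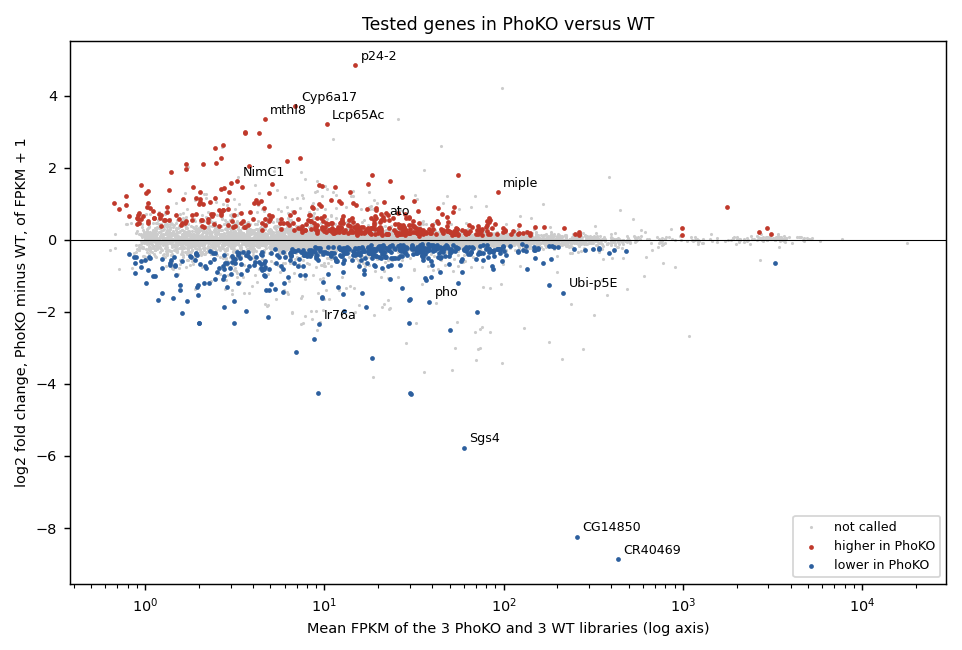
Each point is 1 of the 9572 tested genes, with the mean FPKM of the 3 PhoKO and 3 WT libraries on a log axis and the log2 fold change of FPKM + 1, PhoKO minus WT, on the other. Most of the 450 genes called higher and the 503 called lower lie near 0, and CR40469 at -8.86 and CG14850 at -8.24 lie farthest down.

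Most called changes were small. The median size of the change was 0.39 on the log2 scale among called genes and 0.09 among all tested genes, and 128 called genes changed by 1 or more, 63 of them higher and 65 lower. The shares of genes called were 12.7% at WT levels under 5 FPKM (131 higher and 85 lower) and 7.2% at 100 FPKM or more (22 higher and 49 lower). PhoKO and WT libraries lay apart on the first principal component of the 6 libraries, which held 36% of the variance, with PhoKO between -24 and -15.7 and WT between 17.4 and 21.9. The second, with 29.1%, had PhoKO 1 (25.5) and WT 3 (21.4) at one end. These were the libraries of lowest depth, at 63.6% and 59.6% of the depth of WT 1 against 87.2% to 106.1% in the other 7, as read from the smallest steps of the values; without both, 682 genes were called.

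The targeted gene was low in the libraries labelled PhoKO. The level of pho was 15.3, 18.7 and 18.3 FPKM in the PhoKO libraries, against 53.7, 57.2 and 67.8 FPKM in the WT libraries, and the groups did not overlap. PhoKO held 29.3% of the WT mean (log2 fold change -1.71, SE 0.10, adjusted p = 3.99e-06; exact two-sided permutation test on FPKM, p = 0.1, the smallest that 3 against 3 can give). SppsKO libraries had 61.3, 58.5, 60.4 and 66.8 FPKM. Levels of phol, the paralog, were 32.8, 32.6 and 34.7 FPKM in the PhoKO libraries, against 31.5, 30.1 and 30.4 FPKM in the WT libraries; all PhoKO values lay above all WT values, but the gene was not called (log2 fold change 0.12, SE 0.039, adjusted p = 0.0884). Spps had 13.7, 13.8 and 13.5 FPKM in the PhoKO libraries, against 12.4, 12.8 and 12.2 FPKM in the WT libraries, and it too was not called (log2 fold change 0.12, SE 0.061, adjusted p = 0.257).

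The gene pho lies on the small chromosome 4, where 82 genes were tested and 1 was called higher and 5 lower, with 4 steady falls; the 7.3% called here is below the 9.96% over all genes. Besides pho, these steady falls were fuss, CG32850 and the noncoding gene CR44030. The level of fuss, a Ski/Sno family gene, was 1.79, 1.37 and 1.31 FPKM in the PhoKO libraries, against 3.65, 3.596 and 4.72 FPKM in the WT libraries, with no overlap (log2 fold change -0.999, SE 0.11, adjusted p = 0.00052). CG32850 had 13.98, 15.5 and 15.7 FPKM in the PhoKO libraries, against 21.2, 20.7 and 23.4 FPKM in the WT libraries (log2 fold change -0.50, SE 0.057, adjusted p = 0.000484). CR44030 had 0.594, 0.0766 and 0.132 FPKM in the PhoKO libraries, against 2.86, 2.34 and 4.22 FPKM in the WT libraries (log2 fold change -1.71, SE 0.19, adjusted p = 0.000452). The other calls on this chromosome, a fall of Pur-alpha by 0.29 and a rise of CR44024 by 0.57, were not steady.

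The largest rises of genes with a name, taken among steady calls without overlap of the libraries and with a mean of at least 2 FPKM, were in genes near 0 in WT. Under the same rule 14 rises and 11 falls of genes known only by a CG or CR number were at least as large as the smallest changes described here, from CG3588 at 3.00 to CG32581 at -4.25. The transcript of p24-2, a p24 family gene whose products act in vesicle transport, had 21.3, 40.1 and 27.7 FPKM in the PhoKO libraries, against 0.0673, 0.03397 and 0 FPKM in the WT libraries. The 4 SppsKO libraries were at 0, 0, 0.0317 and 0.0376 FPKM, so the gene was detected well above 0 only in the 3 PhoKO libraries. Its close copy eca had 85.4, 82.6 and 77.5 FPKM in PhoKO and 81.02, 88.4 and 77.4 FPKM in WT and was not called, and how fragments were split between the copies is not given in the sources used here. Cyp6a17, a cytochrome P450 gene, had 15.5, 18.04 and 7.71 FPKM in the PhoKO libraries, against 0.0326, 0.0164 and 0.136 FPKM in the WT libraries, and SppsKO libraries lay between 2.95 and 3.86 FPKM. The receptor gene mthl8 of the methuselah family had 8.77, 9.17 and 9.86 FPKM in the PhoKO libraries, against 0, 0.00699 and 0 FPKM in the WT libraries, while SppsKO libraries had 10.7, 11.7, 10.2 and 10.5 FPKM. These values divide p24-2, near 0 in both SppsKO and WT, from mthl8, near 0 in WT alone.

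Other large rises were from levels above 0 in WT. The secreted growth factor gene miple, of the midkine and pleiotrophin family, had 134, 136 and 130.4 FPKM in the PhoKO libraries, against 52.5, 51.1 and 53.9 FPKM in the WT libraries, so the groups lay far apart relative to their spread (log2 fold change 1.33, SE 0.04, adjusted p = 5.56e-08). The adenosine kinase family gene Ady43A had 34.8, 34.5 and 38.1 FPKM in PhoKO and 11.2, 11.4 and 9.998 FPKM in WT (log2 fold change 1.63, SE 0.07, adjusted p = 4.93e-07). The antiviral resistance gene pst had 29.5, 24.8 and 24.9 FPKM in PhoKO and 7.97, 9.401 and 7.86 FPKM in WT (log2 fold change 1.54, SE 0.094, adjusted p = 7.5e-06). In SppsKO, miple was at 101 to 109, Ady43A at 30.9 to 36.6 and pst at 19.9 to 24.5 FPKM, so each was above its WT range there as well. NimC1, a receptor with which plasmatocytes take up bacteria, had 4.69, 7.22 and 4.49 FPKM in PhoKO and 1.01, 0.868 and 1.27 FPKM in WT (log2 fold change 1.64, SE 0.16, adjusted p = 0.00019). SppsKO libraries had 1.45, 1.72, 1.51 and 1.98 FPKM, just above the WT range. The sperm dynein gene Sdic3, one of a row of near-identical repeats whose values are uncertain, had 3.898, 5.56 and 5.53 FPKM in PhoKO and 1.04, 1.25 and 0.7295 FPKM in WT. IM18, an immune induced peptide gene, had 62.6, 119 and 81.03 FPKM in PhoKO and 21.7, 20.2 and 28.8 FPKM in WT, and SppsKO libraries lay between 60.6 and 114 FPKM.

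Large falls included genes that were strongly expressed in WT. The noncoding gene CR40469 had 0.605, 1.12 and 0.833 FPKM in the PhoKO libraries, against 956, 649 and 1002 FPKM in the WT libraries, a difference of -8.86 on the log2 scale (SE 0.16, adjusted p = 3.23e-09). SppsKO libraries had 1.07, 1.25, 1.04 and 1.28 FPKM, the same low level as PhoKO. CG14850, a gene with no name in the table, had 1.75, 0.162 and 0.0605 FPKM in PhoKO and 275, 392.5 and 865 FPKM in WT, and SppsKO libraries were at or under 0.292 FPKM. The fork head factor gene Crg-1 had 0.496, 0.367 and 0.267 FPKM in PhoKO and 5.55, 5.25 and 6.83 FPKM in WT, with SppsKO libraries between 0.359 and 0.537 FPKM. For these 3 genes WT alone was high among the 3 groups, and for them too the part of strain background cannot be told apart.

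Other falls were seen in PhoKO beside high levels in both SppsKO and WT. The gene hng3 had 13.7, 12.7 and 16.3 FPKM in the PhoKO libraries, against 46.5, 49.3 and 42.9 FPKM in the WT libraries (log2 fold change -1.64, SE 0.083, adjusted p = 1.76e-06), and SppsKO libraries had 51.5, 50.6, 46.96 and 51.4 FPKM. Ir76a, an ionotropic chemoreceptor gene, had 2.44, 2.26 and 2.34 FPKM in the PhoKO libraries, against 15.4, 13.6 and 19.6 FPKM in the WT libraries (log2 fold change -2.35, SE 0.11, adjusted p = 6.91e-07), and SppsKO libraries had 12.8, 12.9, 12.1 and 11.9 FPKM. For both genes the PhoKO values were below every value of the other 7 libraries. The polyubiquitin gene Ubi-p5E lay in between, with 105, 117 and 120.5 FPKM in PhoKO and 309.9, 348 and 295 FPKM in WT and 195 to 204 FPKM in SppsKO (log2 fold change -1.47, SE 0.068, adjusted p = 8.24e-07). RpS5b, a copy of the ribosomal protein gene RpS5a with which it may share fragments, had 2.68, 2.27 and 1.52 FPKM in PhoKO and 8.798, 5.31 and 7.89 FPKM in WT, and SppsKO libraries lay between 4.95 and 6.58 FPKM. The C-type lectin gene lectin-28C had 8.26, 11.7 and 7.69 FPKM in PhoKO and 37.9, 62.7 and 49.2 FPKM in WT (log2 fold change -2.31, SE 0.29, adjusted p = 0.00204). SppsKO libraries had 20.6, 19.4, 22.99 and 37.8 FPKM for lectin-28C, above PhoKO and below WT.

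Both neighbouring P450 genes Cyp4p1 and Cyp4p2, close copies that may share fragments, were lower than in WT and higher than in SppsKO. Cyp4p1 had 5.86, 4.42 and 3.02 FPKM in the PhoKO libraries, against 15.1, 14.1 and 15.8 FPKM in the WT libraries, and SppsKO libraries were at or under 0.331 FPKM. Cyp4p2 had 20.4, 23.98 and 5.44 FPKM in the PhoKO libraries, against 83.8, 75.9 and 92.7 FPKM in the WT libraries, and SppsKO libraries were at or under 0.295 FPKM. The call of Cyp4p2 (adjusted p = 0.0128) was lost with the 6 PhoKO and WT libraries alone (0.105), with the replicate block (0.0527) and without both libraries of lowest depth (0.0507), while that of Cyp4p1 held in all 3. Among the largest changes there were also small nucleolar RNA genes, which a poly(A) library measures poorly. The gene snoRNA:Psi28S-1837b had 4.25, 4.88 and 5.59 FPKM in PhoKO and 0, 0 and 0 FPKM in WT, and snoRNA:Psi18S-841d had 0, 0 and 0 FPKM in PhoKO and 4.66, 2.64 and 4.71 FPKM in WT; SppsKO libraries were at 0 for both.

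**Figure D2:**
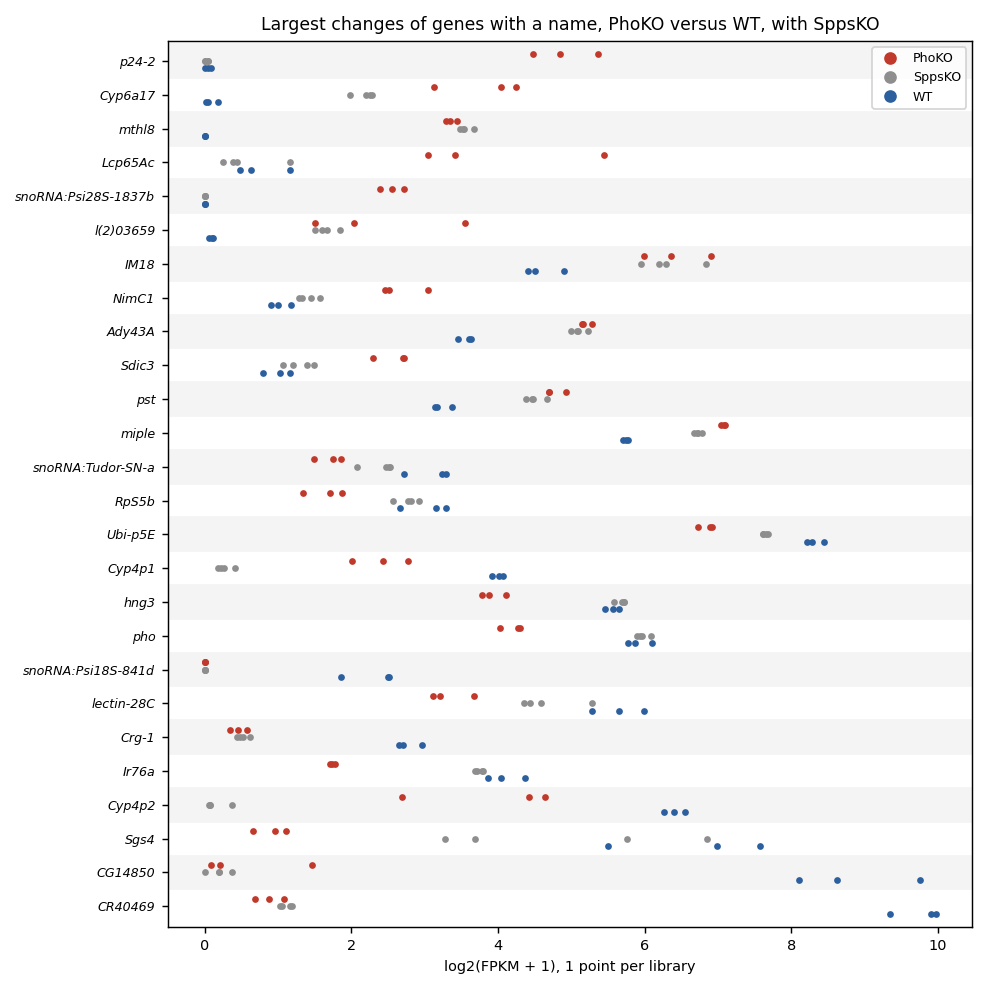
The 12 largest steady rises and 12 largest steady falls of genes with a name, with CR40469 and CG14850, are shown from the largest rise at the top to the largest fall at the bottom, as log2(FPKM + 1) with 1 point per library for 3 PhoKO, 4 SppsKO and 3 WT libraries. For hng3 and Ir76a PhoKO alone is low, and for CR40469, CG14850 and Crg-1 WT alone is high.

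Set directly against SppsKO in the same fit, 1385 genes were called (14.5%), 710 higher and 675 lower in PhoKO, and 844, 862 and 842 without PhoKO 1, PhoKO 2 and SppsKO 2. Of the 26 changes from WT plotted above, which are the largest among genes with a name plus CR40469 and CG14850, 15 were also called in the same direction in PhoKO versus SppsKO, 7 rises and 8 falls. Of all 458 steady calls 287 (62.7%) were called in the same direction there, so this count does not set the largest changes apart. Both comparisons use the same PhoKO libraries. Among the 26, the 2 with the opposite direction were Cyp4p1 and Cyp4p2. The other 9 were not called, and for those genes the values of each group are the only description given here: PhoKO minus SppsKO was -0.20 (SE 0.069, adjusted p = 0.0847) for mthl8, -0.23 (SE 0.15, adjusted p = 0.327) for CR40469 and 0.10 (SE 0.065, adjusted p = 0.328) for Ady43A.

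The Polycomb machinery itself was mostly not called, except for the paired polyhomeotic genes. Of 12 tested genes of PRC1 and its partners, ph-p and ph-d were called higher, both steady, and none was lower (16.7% called, beside 9.96% over all genes). These neighbours on the X chromosome encode a PRC1 subunit that forms polymers, are close copies and may share fragments. Levels of ph-d were 28.9, 29.8 and 29.7 FPKM in the PhoKO libraries, against 18.8, 18.4 and 19.5 FPKM in the WT libraries (log2 fold change 0.62, SE 0.057, adjusted p = 0.000141). Levels of ph-p were 46.4, 51.3 and 53.3 FPKM in the PhoKO libraries, against 34.2, 36.01 and 34.3 FPKM in the WT libraries (log2 fold change 0.52, SE 0.08, adjusted p = 0.00298). All 6 PhoKO values exceeded all WT values of the same gene, and SppsKO libraries had 16.8, 16.6, 17.1 and 14.6 FPKM for ph-d. Su(z)2, a relative of the PRC1 gene Psc, had 12.4, 12.8 and 12.2 FPKM in PhoKO and 10.7, 10.1 and 9.89 FPKM in WT and was not called (log2 fold change 0.26, SE 0.078, adjusted p = 0.0645).

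Of 8 tested PRC2 genes 0 were called by limma and 3 had an unadjusted p under 0.05, with 0.16 as the difference of the methyltransferase gene E(z). Caf1, a histone chaperone of PRC2 and other complexes, had 197, 181 and 189 FPKM in PhoKO and 179, 172 and 176 FPKM in WT (log2 fold change 0.11, SE 0.039, adjusted p = 0.122). Of 11 recruiter genes only pho itself was called (9.1%, beside 9.96% over all genes). Of 24 trithorax group genes, which counter Polycomb silencing, only Bap60, a subunit gene of the Brahma complex, was called (4.2%). Bap60 was lower with 126, 121 and 128 FPKM in PhoKO and 142, 139 and 142 FPKM in WT (log2 fold change -0.18, SE 0.04, adjusted p = 0.0252). This call was lost without PhoKO 1, PhoKO 2, WT 1 or WT 2.

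Hox genes, which give segments their identity and are held silent by Polycomb proteins outside their domains, were not called with all libraries. Of 8 listed, lab and pb were below the filter and 0 of the 6 tested passed, with 2 at an unadjusted p under 0.05. The largest difference was that of Scr, which acts in the prothorax and labial segment, with 22.2, 26.4 and 31.97 FPKM in the PhoKO libraries, against 18.2, 23.7 and 19.1 FPKM in the WT libraries (log2 fold change 0.38, SE 0.13, adjusted p = 0.109). The WT 2 value lay inside the PhoKO range. Without PhoKO 1 Scr was called (log2 fold change 0.50, adjusted p = 0.0391), and with array weights both Scr (adjusted p = 0.00699) and Antp (adjusted p = 0.0283) were. Array weights called 2204 of the 9572 genes, against 953 in the full fit. With the 6 PhoKO and WT libraries alone neither Scr (adjusted p = 0.238) nor Antp (adjusted p = 0.202) was called. Ubx, which gives the haltere its identity, had 12.9, 16.6 and 18.8 FPKM in the PhoKO libraries, against 13.9, 15.9 and 12.1 FPKM in the WT libraries, and the groups overlapped. Antp had 15.5, 16.8 and 16.2 FPKM in PhoKO and 14.9, 14.8 and 14.7 FPKM in WT, without overlap, at a difference of 0.12 (SE 0.045, adjusted p = 0.132). Values of abd-A, Dfd and Abd-B were -0.30, -0.025 and -0.029 on the log2 scale, and the signs of Dfd and Abd-B turned when single libraries were left out.

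Transcription factor genes outside the Hox complexes that are known Polycomb targets changed in both directions. Of 83 tested, 11 were higher and 6 lower, with 5 and 3 steady; the median was 0.04, against -0.002 over all tested genes. The share called is 20.5%, beside 9.96% over all genes. Without WT 1 the counts were 5 higher and 3 lower, and without PhoKO 2 and SppsKO 2 the higher counts were 7 and 6. Steady rises were those of eya, so, eyg, sna and ss, and steady falls those of gsb-n, Lim1 and disco-r. The largest rise was that of ss, the antennal and bristle factor gene spineless, with 9.29, 9.87 and 11.9 FPKM in the PhoKO libraries, against 6.27, 6.57 and 5.33 FPKM in the WT libraries (log2 fold change 0.68, SE 0.094, adjusted p = 0.00162). The snail gene sna, a repressor that also acts in neuroblasts, had 9.42, 9.32 and 8.896 FPKM in PhoKO and 6.53, 6.503 and 6.46 FPKM in WT (log2 fold change 0.45, SE 0.064, adjusted p = 0.00203). The gooseberry-neuro gene gsb-n had 2.72, 2.55 and 2.66 FPKM in the PhoKO libraries, against 4.23, 4.12 and 3.995 FPKM in the WT libraries (log2 fold change -0.49, SE 0.077, adjusted p = 0.0032). For each of these 3 genes the groups did not overlap.

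**Figure D3:**
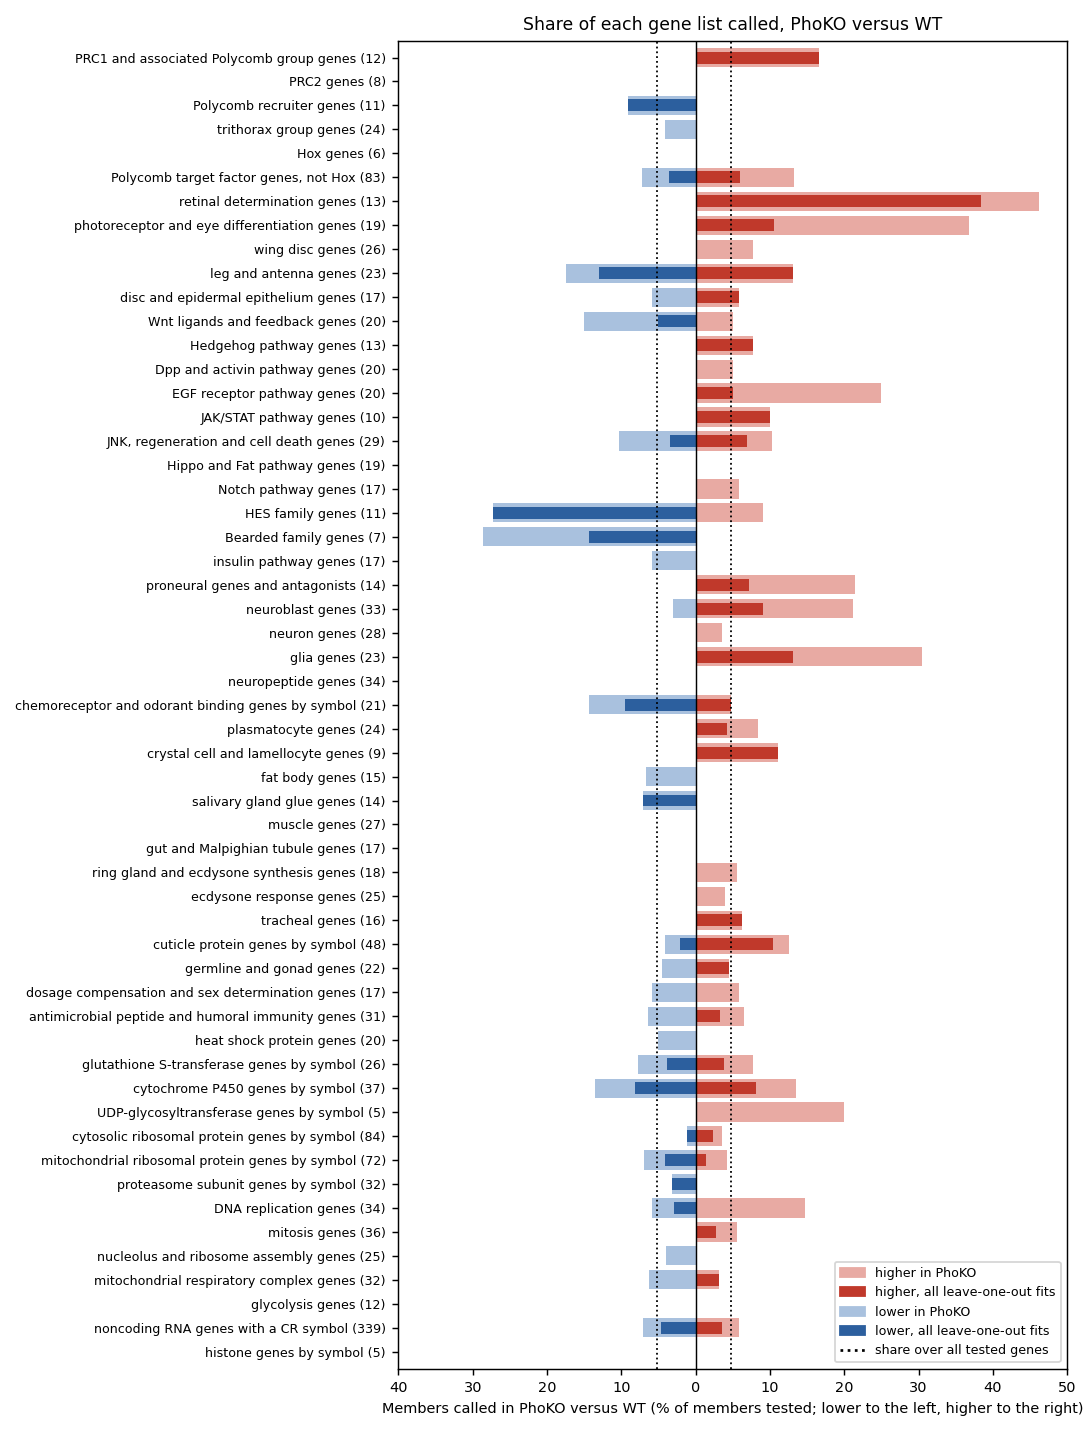
For each gene list, with the number of tested members in parentheses, bars to the right give the share of members called higher in PhoKO than in WT and bars to the left the share called lower, in percent; dark bars count steady calls and dotted lines mark 4.7% higher and 5.25% lower over all tested genes. Retinal determination genes reach 6 of 13 higher, and HES family genes reach 3 of 11 lower.

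Several of the tested genes that specify the eye were higher in PhoKO. Of 13 tested retinal determination genes, 6 were higher and 0 lower (46.2% called, beside 9.96% over all genes). Steady rises numbered 5, and the median was 0.26. Earlier results on these libraries had already shown eye genes to be higher, so the direction of this list is not independent evidence. The phosphatase gene eya, which acts with so, had 38.3, 33.5 and 35.4 FPKM in the PhoKO libraries, against 26.5, 26.6 and 25.8 FPKM in the WT libraries (log2 fold change 0.42, SE 0.054, adjusted p = 0.000991). The homeobox gene so had 22.4, 22.6 and 24.9 FPKM in the PhoKO libraries, against 17.4, 18.5 and 17.6 FPKM in the WT libraries (log2 fold change 0.36, SE 0.05, adjusted p = 0.00153). The Pax gene eyg had 15.2, 15.97 and 16.01 FPKM in the PhoKO libraries, against 11.4, 12.4 and 10.7 FPKM in the WT libraries (log2 fold change 0.42, SE 0.063, adjusted p = 0.00247). In each of these 3 genes every PhoKO library was above every WT library. The antennal and eye genes dan and danr had 15.1, 13.9 and 14.9 FPKM and 31.2, 28.4 and 31.5 FPKM in PhoKO, against 9.97, 9.71 and 10.7 FPKM and 21.3, 23.3 and 22.97 FPKM in WT. Both were steady, at 0.49 (SE 0.057, adjusted p = 0.000591) and 0.41 (SE 0.052, adjusted p = 0.000963). Optix was called at 0.27, but not without PhoKO 1, SppsKO 2, WT 1 or WT 2. Among the 7 members that were not called, the Pax6 gene ey had 17.2, 14.2 and 14.02 FPKM in PhoKO and 11.8, 11.5 and 14.1 FPKM in WT (log2 fold change 0.26, SE 0.093, adjusted p = 0.114), its relative toy was at 0.12, and the disc genes hth and tio were at -0.10 and -0.23.

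Genes of photoreceptor differentiation followed with weaker calls. Of 19 tested, 7 were higher and 0 lower (36.8% called), but 2 of these were steady. The higher count was 2 without PhoKO 1 and 3 without PhoKO 3, WT 1 or WT 2. The proneural gene ato, which founds the R8 photoreceptor, had 25.8, 26.04 and 25.3 FPKM in the PhoKO libraries, against 17.2, 17.1 and 17.8 FPKM in the WT libraries, with little spread in either group (log2 fold change 0.54, SE 0.041, adjusted p = 3.08e-05). Glass, the photoreceptor factor encoded by gl, had 21.1, 21.5 and 23.9 FPKM in the PhoKO libraries, against 12.6, 13.8 and 15.9 FPKM in the WT libraries (log2 fold change 0.62, SE 0.078, adjusted p = 0.000966). SppsKO libraries lay between both groups for both genes, at 21.1, 21.4, 20.6 and 22.6 FPKM for ato and 16.4, 17.1, 17.96 and 17.1 FPKM for gl. The other called members, ro, sev, aos, rho and phyl, differed by 0.21 to 0.42. The neuronal marker elav had 68.7, 60.4 and 60.6 FPKM in PhoKO and 58.96, 59.8 and 64.04 FPKM in WT and was not called, and the R8 factor gene sens had overlapping groups at 0.046.

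Of 20 tested genes of the EGF receptor pathway, which recruits photoreceptors and patterns discs, 5 were higher and 0 lower (25% called). Of these calls 1 was steady, and each library left out except SppsKO 3 and SppsKO 4 lowered the count to between 1 and 3. The steady one was aop, an ETS repressor gene, with 57.1, 62.6 and 61.2 FPKM in PhoKO and 47.9, 50.6 and 45.4 FPKM in WT (log2 fold change 0.33, SE 0.06, adjusted p = 0.00801). The ETS activator gene pnt had 27.1, 26.1 and 27.5 FPKM in PhoKO and 23.4, 23.3 and 22.9 FPKM in WT (log2 fold change 0.20, SE 0.049, adjusted p = 0.0296). The feedback inhibitor genes aos and sty rose by 0.24 and 0.18. The receptor gene Egfr was at -0.094 and the ligand gene spi at 0.083, neither called.

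Leg and antenna genes changed in both directions. Of 23 tested, 3 were higher, all steady, and 4 lower, of which 3 were steady (30.4% called), with a median of -0.03. The rises were ss, dan and danr. The falls were Lim1, bab1, bab2 and, not steady, btd. Lim1, a LIM homeobox gene of the distal leg, had 17.6, 18.1 and 17.8 FPKM in the PhoKO libraries, against 21.4, 21.2 and 21.1 FPKM in the WT libraries (log2 fold change -0.24, SE 0.04, adjusted p = 0.00405). The tarsal gene bab1 had 3.98, 3.598 and 3.51 FPKM in PhoKO and 5.07, 5.14 and 5.29 FPKM in WT (log2 fold change -0.39, SE 0.076, adjusted p = 0.00988), and its neighbour bab2 had 33.5, 35.6 and 37.2 FPKM in PhoKO and 40.5, 41.6 and 41 FPKM in WT (log2 fold change -0.21, SE 0.041, adjusted p = 0.0115). Distal-less, encoded by Dll, had 55.02, 62.2 and 66.5 FPKM in PhoKO and 48.8, 49.9 and 55.02 FPKM in WT and missed the threshold (log2 fold change 0.25, SE 0.071, adjusted p = 0.052). Of 26 wing disc genes, fng and rho were called higher and 0 lower (7.7% called). Neither was steady, and without PhoKO 3, WT 2 or WT 3 the higher count was 0. Of 17 genes of the disc epithelium (11.8% called) baz was a steady rise and grn, a GATA factor gene, a fall that was lost without PhoKO 1 or WT 1. The wing selector genes vg and ap were at -0.068 and -0.089.

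The listed eye disc markers ato, gl, so and eya are all among the called genes above, so their sum would restate those calls and gives no separate measure of eye disc tissue. For the wing genes vg, nub and ap the sums were 79.9, 93.6 and 95.3 FPKM in PhoKO and 91.8, 96.9 and 85.3 FPKM in WT, which overlap. For Dll and dac they were 113.6, 123.4 and 128.4 FPKM in PhoKO and 104.0, 109.8 and 110.8 FPKM in WT. How many eye-antennal, wing and leg discs entered each library is not given in the labels, and the part of disc proportions in the eye result was not tested.

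Some targets of Notch signalling were lower, while few genes of the pathway itself were called. HES family genes encode repressors, some of which Notch switches on. Of 11 tested, 3 were lower, all steady, and 1 was higher (36.4% called). E(spl)m7-HLH had 41.9, 44.99 and 50.4 FPKM in the PhoKO libraries, against 64.8, 67.2 and 76.2 FPKM in the WT libraries (log2 fold change -0.59, SE 0.089, adjusted p = 0.00261). E(spl)m8-HLH had 53.1, 56.4 and 58.2 FPKM in the PhoKO libraries, against 73.4, 74.04 and 72.7 FPKM in the WT libraries (log2 fold change -0.39, SE 0.045, adjusted p = 0.000609). E(spl)m3-HLH had 44.6, 46.4 and 48.2 FPKM in PhoKO and 55.9, 54.1 and 55.4 FPKM in WT (log2 fold change -0.24, SE 0.041, adjusted p = 0.00495). SppsKO libraries lay between 55.5 and 66.5 FPKM for E(spl)m7-HLH. The remaining genes of the complex that were tested, mbeta, mgamma, mdelta and m5, were at -0.14 to -0.03 and were not called. The rise was that of h, hairy, which limits proneural genes, with a difference of 0.19 that was lost without PhoKO 2, PhoKO 3, WT 1 or WT 2.

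The Bearded family, small proteins that restrain Notch ligand uptake, had 2 of 7 tested members lower (28.6% called). All 7 were below 0, with a median of -0.14. Brd had 82.3, 76.5 and 74.02 FPKM in the PhoKO libraries, against 94.01, 102 and 96.6 FPKM in the WT libraries, a steady fall (log2 fold change -0.33, SE 0.06, adjusted p = 0.0078). E(spl)m6-BFM, beside E(spl)m7-HLH on the chromosome, had 9.96, 12.9 and 11.97 FPKM in PhoKO and 14.1, 16.8 and 14.4 FPKM in WT (log2 fold change -0.36, SE 0.091, adjusted p = 0.0376), and its call was lost without any 1 of 8 libraries. Of 17 Notch pathway genes only fng was called; N was at -0.10 and Dl at 0.12. Of 14 proneural genes and antagonists 3 were higher (21.4% called), ato, h and phyl, and ato alone was steady. Another member, sc, was at -0.063, not called.

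**Figure D4:**
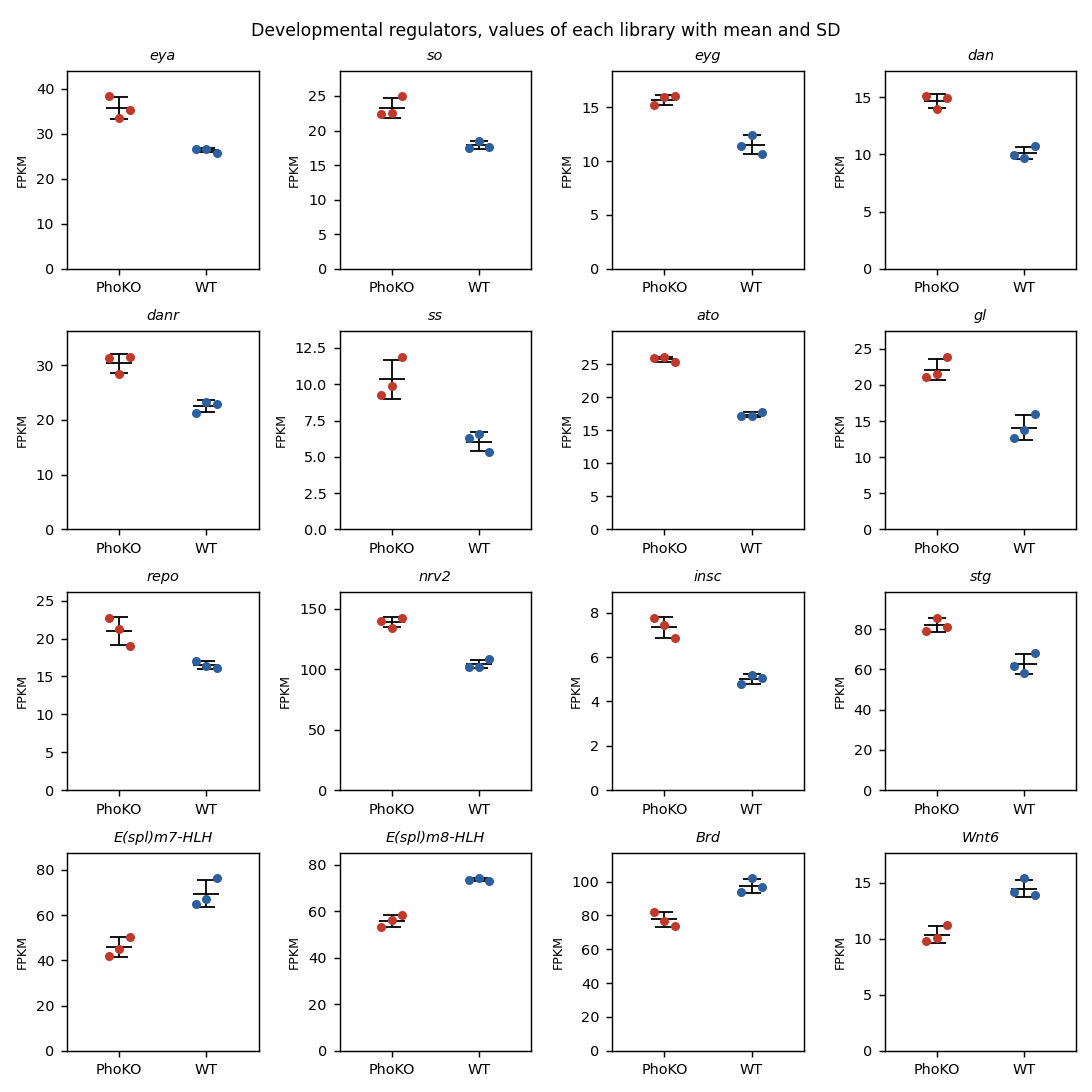
Levels of 16 regulators in FPKM are shown for the 3 PhoKO libraries on the left and the 3 WT libraries on the right of each panel, with the mean and SD in black and axes that start at 0. The first 12 genes are higher in PhoKO, and the last 4, E(spl)m7-HLH, E(spl)m8-HLH, Brd and Wnt6, are lower, without overlap in any panel.

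In the nervous system, some neuroblast and glia genes were higher, but many of these calls were not steady. Of 33 tested neuroblast genes 7 were higher and 1 lower (24.2% called), and 3 rises were steady. In this list 27 members were above 0, with a median of 0.11. Without PhoKO 1 or WT 1 the higher count was 3, and without both libraries of lowest depth it was 2. The spindle orientation gene insc had 7.77, 7.43 and 6.85 FPKM in the PhoKO libraries, against 4.77, 5.19 and 5.08 FPKM in the WT libraries (log2 fold change 0.47, SE 0.086, adjusted p = 0.00735). The polarity gene baz, which epithelia also use, had 37.2, 42.7 and 37.6 FPKM in PhoKO and 29.4, 26.3 and 28.4 FPKM in WT (log2 fold change 0.47, SE 0.062, adjusted p = 0.00123). The third steady rise was that of dan. The temporal factor gene cas had 28.6, 25.5 and 20.3 FPKM in PhoKO and 17.3, 13.4 and 18.6 FPKM in WT and a call that was not steady (log2 fold change 0.56, SE 0.15, adjusted p = 0.0471). The stem cell gene dpn had 4.31, 4.42 and 4.57 FPKM in PhoKO and 4.83, 4.402 and 4.92 FPKM in WT and was not called, and its partner in the marker pair, mira, was called at 0.20.

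Of 23 tested glia genes 7 were higher and 0 lower (30.4% called, beside 9.96% over all genes), and 3 of the rises were steady. In this list 21 members were above 0, with a median of 0.14. The higher count was 3 without WT 1, 4 without any 1 PhoKO library, and 1 without both libraries of lowest depth. The glial marker gene repo had 22.8, 21.3 and 19.04 FPKM in the PhoKO libraries, against 17.1, 16.3 and 16.1 FPKM in the WT libraries (log2 fold change 0.33, SE 0.062, adjusted p = 0.00881). The sodium pump subunit gene nrv2 had 140.4, 134 and 143 FPKM in the PhoKO libraries, against 102, 102 and 109 FPKM in the WT libraries (log2 fold change 0.41, SE 0.044, adjusted p = 0.000366). The glial gene axo had 8.72, 7.83 and 7.69 FPKM in PhoKO and 6.53, 6.11 and 5.91 FPKM in WT (log2 fold change 0.34, SE 0.065, adjusted p = 0.0101). In all 3 genes the PhoKO libraries were above the WT libraries, and SppsKO libraries were at 16.4 to 17.7 FPKM for repo. With the 6 PhoKO and WT libraries alone the calls of repo and axo were lost (adjusted p = 0.0526 and 0.0636). They were also lost without both libraries of lowest depth (adjusted p = 0.0565 and 0.0591), while that of nrv2 held in both fits. The calls of gcm, pnt, loco and moody, at 0.20 to 0.28, were not steady.

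Of 28 neuron genes 1 was called, Appl, the amyloid precursor relative, with 104, 95.5 and 91.99 FPKM in PhoKO and 68.2, 62.1 and 75.2 FPKM in WT (log2 fold change 0.50, SE 0.12, adjusted p = 0.0291); the call was lost without any 1 of 6 libraries. The synaptic gene nSyb had 69.9, 54.7 and 52.02 FPKM in PhoKO and 51.9, 45.1 and 57.9 FPKM in WT, with overlap. Of 34 neuropeptide genes 0 were called by limma, and 5 had an unadjusted p under 0.05. Nplp2 varied widely within groups, with 458, 134 and 15.01 FPKM in PhoKO and 98.4, 20.7 and 130.2 FPKM in WT, and Akh, the adipokinetic hormone gene, had 48.5, 50.2 and 44.7 FPKM in PhoKO and 44.98, 42.6 and 36.5 FPKM in WT (log2 fold change 0.21, SE 0.085, adjusted p = 0.172). Chemoreceptor and odorant binding genes were mostly below the filter, with 21 of 256 tested, 1 higher and 3 lower (19% called). Besides Ir76a, the channel genes ppk28 and ppk29 moved in opposite directions: ppk28 had 3.202, 3.23 and 3.26 FPKM in PhoKO and 1.86, 1.603 and 1.28 FPKM in WT (log2 fold change 0.72, SE 0.10, adjusted p = 0.00128) and ppk29 had 3.301, 2.62 and 3.16 FPKM in PhoKO and 4.57, 4.31 and 5.16 FPKM in WT (log2 fold change -0.50, SE 0.089, adjusted p = 0.00683).

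Other signalling pathways had few calls, with 20% of the Wnt genes called and 10% or less in the other lists of this paragraph. Of 20 Wnt genes 1 was higher and 3 lower, and the steady one was Wnt6, a ligand gene next to wg, with 9.799, 10.1 and 11.2 FPKM in the PhoKO libraries, against 14.2, 15.4 and 13.9 FPKM in the WT libraries (log2 fold change -0.45, SE 0.058, adjusted p = 0.00107); without any 1 of PhoKO 1, SppsKO 1, SppsKO 2, SppsKO 3, WT 1 and WT 2 it was the only fall left. The level of wg was at 0.076, not called. Of 13 Hedgehog pathway genes ihog, a coreceptor gene, was higher with 88.1, 96.3 and 103 FPKM in PhoKO and 76.6, 79.04 and 72.9 FPKM in WT (log2 fold change 0.33, SE 0.056, adjusted p = 0.00528), while hh, ptc and ci were at -0.084, 0.10 and -0.048. Of 10 JAK/STAT genes the feedback inhibitor gene Socs36E was higher with 30.1, 31.5 and 33.02 FPKM in PhoKO and 24.4, 26.2 and 22.5 FPKM in WT (log2 fold change 0.36, SE 0.056, adjusted p = 0.00301). Of 20 Dpp and activin genes the activin-like ligand gene daw was higher with 16.5, 11.96 and 18.96 FPKM in PhoKO and 9.196, 11.5 and 7.88 FPKM in WT, but this call was not steady, and dpp was at -0.12. Of 17 insulin pathway genes Sdr was lower, not steady. Of 19 Hippo and Fat pathway genes 0 were called by limma and 2 had an unadjusted p under 0.05, with th at -0.03 and sd at -0.0013.

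Stress and cell death genes gave 3 rises and 3 falls among 29 tested (20.7% called), with 2 and 1 steady. The steady fall was Wnt6, the Wnt ligand gene described above. The cell death gene rpr had 19.04, 18.8 and 18.2 FPKM in the PhoKO libraries, against 13.98, 13.4 and 15.3 FPKM in the WT libraries (log2 fold change 0.37, SE 0.05, adjusted p = 0.0015). Gadd45, a stress response gene upstream of JNK, had 26.4, 21.8 and 28.4 FPKM in the PhoKO libraries, against 12.9, 15.1 and 11.9 FPKM in the WT libraries (log2 fold change 0.89, SE 0.13, adjusted p = 0.00248). The effector caspase gene Ice was lower with 51.1, 55.9 and 58.1 FPKM in PhoKO and 69.3, 74 and 63.4 FPKM in WT, a call lost without PhoKO 1, WT 1 or WT 2. JNK targets such as puc and Mmp1 were at 0.07 and -0.20 and were not called. Of 20 heat shock genes Hsp23 was lower, not steady.

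Among detoxification, cuticle and immunity genes some members were higher and others lower. Of 37 tested P450 genes 5 were higher and 5 lower (27% called, beside 9.96% over all genes), with 3 steady each way. Besides Cyp6a17, the steady rises were Cyp9c1 with 23.6, 24.1 and 23.9 FPKM in PhoKO and 13.9, 13.3 and 16.6 FPKM in WT (log2 fold change 0.68, SE 0.085, adjusted p = 0.000959) and Cyp6a13 with 4.18, 3.68 and 4.22 FPKM in PhoKO and 2.06, 1.51 and 1.82 FPKM in WT (log2 fold change 0.85, SE 0.11, adjusted p = 0.00138). Besides the Cyp4p pair, the steady fall was Cyp6d2 with 0.884, 0.751 and 1.396 FPKM in PhoKO and 3.21, 4.27 and 3.17 FPKM in WT (log2 fold change -1.18, SE 0.15, adjusted p = 0.00104). Without WT 1 the counts were 3 higher and 3 lower. Of 26 glutathione S-transferase genes 2 were higher and 2 lower (15.4% called), with GstE8 (3.74, 3.71 and 3.81 FPKM in PhoKO and 1.66, 1.56 and 1.77 FPKM in WT) and GstZ1 (15.2, 17.2 and 16.2 FPKM in PhoKO and 19.4, 20.9 and 21.4 FPKM in WT) steady. Of 5 tested UDP-glycosyltransferase genes Ugt86Di was higher, not steady.

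Of 131 cuticle protein genes 48 were tested, and 6 were higher, 5 of them steady, and 2 lower, 1 of them steady (16.7% called). Lcp65Ac, the larval cuticle gene with the largest rise, had 42.7, 9.63 and 7.26 FPKM in the PhoKO libraries, against 1.24, 0.396 and 0.555 FPKM in the WT libraries; PhoKO 1 stood far above the other libraries of its group (log2 fold change 3.21, SE 0.58, adjusted p = 0.0118). With the 6 PhoKO and WT libraries alone this call was lost (adjusted p = 0.0836). Cpr66D had 17.3, 17.2 and 16.2 FPKM in the PhoKO libraries, against 8.27, 7.83 and 7.51 FPKM in the WT libraries, with little spread (log2 fold change 1.01, SE 0.061, adjusted p = 7.13e-06). TwdlV had 2.23, 3.23 and 3.66 FPKM in PhoKO and 0.9704, 0.502 and 0.874 FPKM in WT and Lcp65Af had 7.45, 7.07 and 4.68 FPKM in PhoKO and 2.76, 2.09 and 2.56 FPKM in WT. Cpr51A was lower with 22.01, 19.9 and 26.97 FPKM in PhoKO and 44.9, 41.5 and 62.2 FPKM in WT (log2 fold change -1.07, SE 0.15, adjusted p = 0.00221). Of 25 genes of the ecdysone response only Edg78E, itself a cuticle gene, was called, and this call was not steady; EcR was at 0.089 and ftz-f1 at 0.13. Of 18 ecdysone synthesis and ring gland genes mld alone was called, not steady, and phm had 119, 93.9 and 107 FPKM in PhoKO and 98.8, 107 and 112 FPKM in WT.

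Of 31 immunity genes 2 were higher and 2 lower (12.9% called, near the share over all genes), and IM18 alone was steady. The attacin gene AttD had 0.854, 0.0794 and 0.934 FPKM in PhoKO and 5.58, 6.02 and 3.13 FPKM in WT and the cecropin gene CecA1 had 0.402, 1.93 and 0.715 FPKM in PhoKO and 3.76, 6.73 and 15.4 FPKM in WT; the groups did not overlap, but their calls were lost without most single libraries. Among 24 plasmatocyte genes NimC1 and gcm were higher (8.3% called, below the 9.96% over all genes), and gcm was not steady. The other defining plasmatocyte markers had overlapping groups for Hml, with 10.4, 11.7 and 5.98 FPKM in PhoKO and 7.42, 4.47 and 11.9 FPKM in WT, and lower values without a call for eater, with 4.98, 8.38 and 6.19 FPKM in PhoKO and 9.59, 11.6 and 13.4 FPKM in WT. The sum of Hml, NimC1 and eater was 16.7 to 27.3 FPKM in PhoKO and 16.9 to 26.6 FPKM in WT. The crystal cell genes PPO1 and PPO2 were not called. The 1 call among 9 crystal cell and lamellocyte genes (11.1%) was peb, a zinc finger gene that trachea and photoreceptors also use. It had 9.83, 10.3 and 10.8 FPKM in PhoKO and 7.28, 8.64 and 7.03 FPKM in WT (log2 fold change 0.39, SE 0.076, adjusted p = 0.0101). This gene was also the 1 call among 16 tracheal genes (6.2%).

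Markers of the salivary gland, gut, fat body and muscle varied widely between libraries of the same group. The glue genes of the salivary gland had a median of -2.38 over 14 tested genes, but only Sgs4 was called. The summed level of Sgs3, Sgs4, Sgs7 and Sgs8 was 1118, 294.6 and 61.6 FPKM in PhoKO and 678.3, 5279 and 2364 FPKM in WT. Sgs4 was the exception within this set, with 0.948, 0.586 and 1.17 FPKM in the PhoKO libraries, against 44.1, 189 and 126 FPKM in the WT libraries, at or under 1.17 FPKM in every PhoKO library whatever the level of the other glue genes (log2 fold change -5.77, SE 1.00, adjusted p = 0.0122). Without both libraries of lowest depth this call was lost (adjusted p = 0.0881). SppsKO libraries had 11.9, 8.71, 114 and 53.4 FPKM. In PhoKO 1, Sgs7 stood at 852.5 FPKM, above WT 1 at 463.6 FPKM, while Sgs4 was at 0.948 FPKM in PhoKO 1 and 44.1 FPKM in WT 1.

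Gut genes had a median of -1.38 with 0 of 17 above 0 and 0 called by limma, and 2 had an unadjusted p under 0.05. Their markers Jon25Bi, Mal-A1 and alphaTry summed to 0.302, 0.0654 and 21.6 FPKM in PhoKO and 35.3, 17.8 and 0.537 FPKM in WT, so PhoKO 3 was high and WT 3 low within their groups. Fat body markers Lsp1alpha, Lsp1beta, Lsp2 and Fbp1 summed to between 452.3 and 2844 FPKM in PhoKO and between 783.2 and 3378 FPKM in WT, and of 15 fat body genes Mtp alone was called, not steady. The muscle markers Mhc, Mlc2, Act57B and Mef2 summed to 481.3, 204.3 and 117.9 FPKM in PhoKO and 192.2, 200.5 and 193.5 FPKM in WT, and 0 of 27 muscle genes were called by limma or had an unadjusted p under 0.05. The part of adhering tissue in the other results was not tested.

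**Figure D5:**
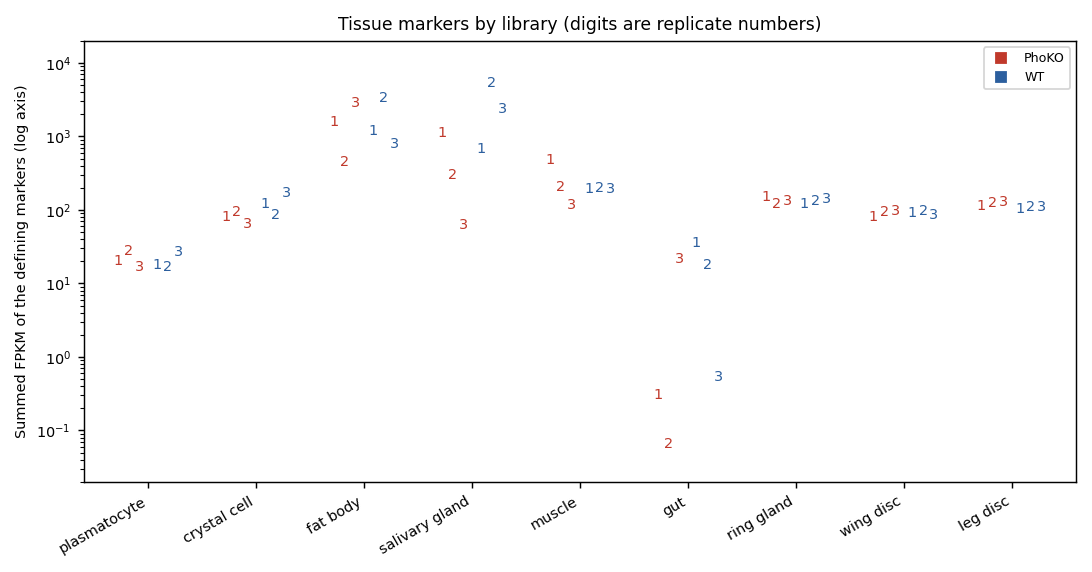
The summed FPKM of the defining markers of each tissue is shown on a log axis for the 3 PhoKO libraries (left) and the 3 WT libraries (right), drawn as replicate numbers. The salivary gland, gut, fat body and muscle sums spread widely within groups.

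Germline genes were mostly below the filter, with 22 of 54 tested. Of these, 1 was higher and 1 lower (9.1% called, near the 9.96% over all genes). The piRNA pathway gene mael was a steady rise with 2.603, 2.71 and 2.67 FPKM in the PhoKO libraries, against 1.44, 1.42 and 1.598 FPKM in the WT libraries (log2 fold change 0.56, SE 0.083, adjusted p = 0.00242), and SppsKO libraries were higher still at 4.84, 5.14, 4.46 and 5.45 FPKM. The germ plasm gene pgc was lower, not steady. The male dosage compensation RNAs roX1 and roX2 had 227, 207 and 178 FPKM in PhoKO and 154, 123 and 203 FPKM in WT for roX1 and 28.9, 27.01 and 24.3 FPKM in PhoKO and 29.1, 19.5 and 52.3 FPKM in WT for roX2; the groups overlapped for roX2 and for roX1, and neither was called. The share of male larvae in each library is not given in the labels. Of 17 genes of dosage compensation and sex determination msl-3 was higher and dsx lower (11.8% called), neither steady.

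Growth genes moved little. Of 84 cytosolic ribosomal protein genes 3 were higher and 1 lower, below the shares over all genes, although 66 were above 0, with a median of 0.04. RpS21 had 3368, 3180 and 3272 FPKM in PhoKO and 2640, 2534 and 2662 FPKM in WT (log2 fold change 0.33, SE 0.053, adjusted p = 0.00401); the fall was that of RpS5b. Of 72 mitochondrial ribosomal protein genes 3 were higher and 5 lower (11.1% called). Of these, mRpS31 rose by 0.45 and mRpS16 fell by 0.34, both steady. Of 32 proteasome genes Prosalpha4 alone was called, lower with 227, 222 and 228 FPKM in PhoKO and 276, 285 and 249.8 FPKM in WT (log2 fold change -0.26, SE 0.05, adjusted p = 0.0105). Of 32 respiratory chain genes cytochrome c, Cyt-c-p, was the steady call, higher with 209, 180.1 and 181 FPKM in PhoKO and 146, 141 and 155 FPKM in WT (log2 fold change 0.36, SE 0.069, adjusted p = 0.01). Glycolysis genes gave 0 limma calls of 12, 3 had an unadjusted p under 0.05, and quantile normalization gave 3 calls. Of 5 tested histone genes, from 99 listed, 0 were called by limma and 2 had an unadjusted p under 0.05. Of 25 nucleolus genes RpI1 was called, lower and not steady.

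Cell division genes were slightly above 0 as lists. Of 34 DNA replication genes 29 were above 0, and 5 were called higher and 2 lower (20.6% called). However, 0 rises were steady, and without PhoKO 1 or PhoKO 2 no rise was called. The fall of Psf1, a subunit gene of the GINS helicase complex, was steady with 17.03, 19.01 and 18.1 FPKM in the PhoKO libraries, against 23.8, 24.1 and 23.3 FPKM in the WT libraries (log2 fold change -0.38, SE 0.045, adjusted p = 0.00062). Of 36 mitosis genes 28 were above 0 and stg and pav were called higher (5.6% called). The mitotic phosphatase gene stg, which starts mitosis in neuroblasts and discs, had 79.05, 85.7 and 81.3 FPKM in the PhoKO libraries, against 61.5, 58.2 and 68.4 FPKM in the WT libraries (log2 fold change 0.38, SE 0.056, adjusted p = 0.00223), with SppsKO libraries between 63.3 and 64.8 FPKM. The call of pav was not steady; the count of mitosis genes called higher was 5 without WT 3, 2 without SppsKO 4 and 1 without any other single library.

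Noncoding genes with a CR symbol were tested for 339 of 2007, with 20 higher and 24 lower (13% called, beside 9.96% over all genes). Of these, 12 and 16 were steady. Besides CR40469, the largest of these falls include CR32027, with 1.21, 1.76 and 1.63 FPKM in the PhoKO libraries, against 14.8, 17.8 and 15.2 FPKM in the WT libraries (log2 fold change -2.74, SE 0.10, adjusted p = 1.98e-07), and CR32205, with 9.004, 8.04 and 7.23 FPKM in PhoKO and 27.3, 23.7 and 21.9 FPKM in WT (log2 fold change -1.48, SE 0.091, adjusted p = 7.73e-06). CR44539 was near 0 in PhoKO, with 0.0431, 0.0562 and 0.0315 FPKM, against 2.004, 2.21 and 2.76 FPKM in WT and 1.20 to 1.84 FPKM in SppsKO. The kit keeps strand, but whether counting used it is not given in the sources used here, so a noncoding gene and a gene on its other strand may share fragments.

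A set of 12 genes was under 0.1 FPKM in each WT library and at 1 FPKM or more in each PhoKO library. The reverse was seen for 5 genes. Both sets hold small nucleolar RNA genes, which a poly(A) library measures poorly. They are snoRNA:Psi18S-1347a and snoRNA:Psi28S-1837b among the 12, and snoRNA:Psi18S-301, snoRNA:Psi18S-841d and snoRNA:Psi28S-1135f among the 5. Within the 12, CR44316 and snoRNA:Psi18S-1347a were not called. Of the 12, SppsKO libraries were at 1 FPKM or more throughout for 5, among them mthl8 and CG18278, and under 0.1 FPKM throughout for 3, among them p24-2 and CG14423. CG14423 had 7.72, 8.89 and 4.97 FPKM in the PhoKO libraries, against 0.02198, 0.0222 and 0 FPKM in the WT libraries, and SppsKO libraries were at 0. Its neighbour CG3598 on the X chromosome had 7.35, 5.05 and 3.86 FPKM in PhoKO and 0, 0 and 0 FPKM in WT, and the gene beyond, CG3603, was also higher with 25.2, 22.9 and 22.9 FPKM in PhoKO and 15.4, 16.1 and 14.3 FPKM in WT (log2 fold change 0.60, SE 0.059, adjusted p = 0.000207). Among the 5 of the reverse kind, CG32581 had 0, 0.0195 and 0.0205 FPKM in the PhoKO libraries, against 17.8, 17.5 and 19.7 FPKM in the WT libraries, and SppsKO libraries had 7.14, 5.58, 4.198 and 5.197 FPKM. These 17 genes were picked by their values, which serve as description.

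Along the chromosomes, calls were spread over all arms. On the X chromosome 63 of 1568 tested genes were higher and 111 lower (11.1% called, beside 9.96% over all genes). Of these, 32 and 53 were steady. Under quantile normalization the counts were 72 higher and 96 lower. The largest share was that of arm 3L, with 102 higher and 116 lower of 1862 (11.7% called). Arm 2L had 96 higher and 82 lower of 1698 (10.5% called), 2R had 85 and 87 of 1938 (8.9% called), and 3R had 100 and 101 of 2323 (8.7% called). Of 949 called genes placed on the map, 201 (21.2%) had a tested neighbour called in the same direction. Of the genes called higher 20.1% had a neighbour called higher, beside 8.45% of the genes that were not called, and of those called lower 22.1% had a neighbour called lower, beside 9.41% of the genes that were not called. Neighbouring genes may overlap and share fragments, and these shares were not tested. There were 109 such adjacent pairs and 54 pairs called in opposite directions. Runs of 3 or more numbered 14, none longer than 4. Examples are E(spl)m6-BFM, E(spl)m7-HLH and E(spl)m8-HLH, all lower, and ph-d, ph-p and CG3835, all higher. CG3835 had 22.4, 19.9 and 18.5 FPKM in the PhoKO libraries, against 8.197, 6.29 and 8.01 FPKM in the WT libraries (log2 fold change 1.33, SE 0.11, adjusted p = 5.44e-05). Ir76a lay in a run with CG14102 and CG15881, which were lower by smaller amounts, at -0.64 and -0.31.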

How the data were processed

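Poly(A) RNA of imaginal discs and brains was measured in 3 PhoKO, 4 SppsKO and 3 WT libraries, which a stranded kit and 1 pooled sequencing run produced, per the labels' protocols; no batch is labelled. Values are FPKM per gene in a single table normalized before deposit by the authors, per the name of the deposited table. Per the submitters' processing notes, RNA-Seq tools named for the series include TopHat2 2.1.1, Cufflinks, Cuffnorm and HTSeq, and the builds are dm3 and BDGP5; the step that made the FPKM values, and its strand setting, is not given in these sources. Overlapping genes and near-identical copies may therefore share fragments. FPKM keeps no count, so total depth is unknown and no count test was run; relative depth was read from the value steps of genes under 0.3 FPKM.

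A pseudocount of 1 was added and log2 values of the 9572 genes with FPKM of 1 or more in at least 3 of the 6 PhoKO and WT libraries were tested with limma (version 3.58.1, under R 4.3.3), using eBayes with its trend and robust options, all 10 libraries sharing 1 estimate of the spread and no covariate. P-values were adjusted by Benjamini-Hochberg within each comparison at a threshold of 0.05. The fit was checked on simulated data. Of the symbols, 16299 of 16502 were found among symbols or unique synonyms of the Release 6 plus ISO1 MT assembly, which differs from the build of the files and served only for names, chromosome arms and the order of neighbouring genes.

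The comparison, the 55 gene lists and the rules were chosen with earlier results of these data known. Genes named are pho, phol, Spps and the Hox genes; the 12 largest rises and falls with a name, and the 2 largest whatever the symbol, among steady calls without overlap and with a mean of 2 FPKM or more; up to 4 called members of each list by adjusted p, or 2 of highest level where none was called; and each list's largest called rise and fall. Other genes named with values, such as the uncalled pathway genes, the neighbours of pho, the genes near 0 in 1 group and the members of runs, were chosen after their values were seen. The 42 ChIP-Seq samples were not analysed here. Alternatives were other pseudocounts, filters, scalings and weights, the 6 libraries alone, a block for the replicate number, and omission of single libraries.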

Additional observations from a re-analysis of the deposited data

Results flagged for a closer look

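The SppsKO groups of 4 libraries were examined for the 26 plotted largest changes, and 3 held a library far from the others. Chance flags about 1 in 20 such groups where values are normally distributed, which FPKM near 0 need not be. The genes snoRNA:Psi28S-1837b and snoRNA:Psi18S-841d, at 0 in all 4 SppsKO libraries, could not be flagged. Cyp4p2 was at 0.295 FPKM in SppsKO 4, against 0.0461 to 0.0527 FPKM in the other 3. Lcp65Ac was at 1.25 FPKM in SppsKO 4, against 0.185 to 0.362 FPKM in the other 3. The snoRNA:Tudor-SN-a value was lowest in SppsKO 3, at 3.22 FPKM, against 4.54 to 4.80 FPKM in the other 3. Groups of 3 libraries, which include PhoKO and WT, were not examined in this way.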

How the results depend on the processing

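Of the counts, 953 calls became 2204 with array weights (1050 higher and 1154 lower). With only the 6 PhoKO and WT libraries they became 486 (245 and 241). In that fit fewer samples estimate the spread, and the closely alike SppsKO libraries no longer share in it. SppsKO 1, SppsKO 2 and SppsKO 3 correlated at 0.989 to 0.996, against 0.963 to 0.971 among PhoKO and 0.965 to 0.982 among WT libraries. Without SppsKO 4, which correlated with them at 0.973 to 0.976, 1122 genes were called. Leaving out 1 library gave between 581 and 1122 calls, 282 to 534 higher and 299 to 588 lower; the lowest counts were 609 without PhoKO 2 (288 and 321) and 581 without WT 1 (282 and 299). Under quantile normalization 558 were higher and 435 lower. PhoKO versus SppsKO gave between 842 and 1669 calls when 1 library was left out, and the fold change of pho lay between -1.78 and -1.62. With the replicate block 682 genes were called, 330 higher and 352 lower; deviations of same-numbered PhoKO and WT libraries correlated at -0.149, 0.123 and -0.393, so the numbers were not treated as pairs. No value changed its sign when called. Of 123 named genes called in all libraries, 46 lost their call with the 6 libraries alone, 36 without both libraries of lowest depth and 29 with the replicate block, while other alternatives cost at most 13. Over single libraries left out, 248 of 1450 values of named genes lost and 1 gained a call. The cause of these differences was not tested. At 63.6% and 59.6% of the depth of WT 1, PhoKO 1 and WT 3 have coarser values for genes under 1 FPKM, where small changes were not detectable.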
